A study of Mus musculus with 3 samples.

Results

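The contractile target genes of serum response factor (SRF) were examined in NIH3T3 cells, a mouse embryonic fibroblast line. The 10 genes were taken by name: Acta2, Actg2, Tagln, Cnn1, Cnn2, Myl9, Tpm1, Tpm2, Vcl and Ankrd1. They are 10 of the 20660 genes that could be named on the array, and the list is one of names, not of measured values. Every array sequence (probe) of these genes was kept, which gave 17 of the 55681 probes.

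NIH3T3 cells were grown to confluency in serum-supplemented medium and collected after 24 h without treatment (None), with 20 µM AR7 or with 20 µM BMS614. Both compounds were dissolved in DMSO. The labels do not say whether the untreated culture received DMSO. AR7 binds retinoic acid receptor alpha (RARα) and activates chaperone-mediated autophagy, and BMS614 is a selective antagonist of the same receptor. Total RNA of each culture was hybridized to 1 one-colour Agilent mouse array, and all 3 arrays lay on 1 slide.

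SRF is a DNA-binding factor that recognizes the CArG box. In fibroblasts, actin polymerization releases the myocardin-related factors MRTF-A and MRTF-B from monomeric actin, and these then act with SRF on genes of the actin cytoskeleton. Myofibroblasts and, with myocardin, smooth muscle cells use the same route for their contractile genes, and serum is among the best known stimuli of the pathway.

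The promoters of the genes were read first, because the CArG box is the sequence that SRF recognizes. The box was taken as 2 C, 6 bases that are each A or T, and 2 G, and it reads alike on both strands. RefSeq promoter windows (GRCm38.p6) of 250 bases before to 50 bases after the gene start were held for 8 of the 10 genes, all except Tagln and Actg2. A full box lay in 3 of the 8 windows, against 535 of 32851 promoters (1.63%). Allowing 1 C or G among the 6 central bases gave 4 of 8, against 3280 of 32851 (9.98%). The stretches that hold the boxes are printed on the strand of the gene, with each box in capitals.

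Cnn2, chr10:79988524-79988573, plus strand, box starting 56 bases before the gene start: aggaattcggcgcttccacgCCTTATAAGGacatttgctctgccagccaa
Vcl, chr14:20929151-20929200, plus strand, box starting 227 bases before the gene start: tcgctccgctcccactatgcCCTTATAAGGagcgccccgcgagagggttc
Myl9, chr2:156775283-156775394, plus strand, a full box 161 bases and a box with 1 substitution 99 bases before the gene start: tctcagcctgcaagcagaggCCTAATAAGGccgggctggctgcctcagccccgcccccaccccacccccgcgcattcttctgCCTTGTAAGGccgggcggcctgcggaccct
Acta2, chr19:34255378-34255477, minus strand, boxes with 1 substitution each, 84 and 34 bases before the gene start: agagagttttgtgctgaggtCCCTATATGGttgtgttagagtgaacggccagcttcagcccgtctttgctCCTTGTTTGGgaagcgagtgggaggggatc

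Cnn2 and Vcl held the same 10 letters, CCTTATAAGG, as their box. Myl9 and Acta2 each held a pair of boxes in 1 window. No such letters were found before the start of Cnn1, Tpm1, Tpm2 or Ankrd1. Among the other cytoskeletal SRF targets, a full box lay in 6 of 23 windows. The letters are a description of these windows and were not set against binding.

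A probe was called well above background by the scanner software's flag, and 30288 probes were so on all 3 arrays. The share of probes well above background ran from 55.4% to 61.8%, and the 75th percentile of raw intensity was 692 for None, 780.5 for AR7 and 909 for BMS614. Values are given as log2 signal after background correction and quantile normalization, which gives the arrays a common distribution. With 1 array per condition no test between conditions was possible. The only error that could be measured was that between spots: 265 probes are printed 10 times on each array, and the SD of their spot-by-spot differences fell with signal, from 0.386 to 0.0495 for AR7 against None. A difference is set here beside this SD at its own signal level, and it leaves out all variation between cultures. The values are of bulk RNA, in which fewer cells of a type and less RNA per cell cannot be told apart.

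Of the 17 probes, 16 were well above background on all 3 arrays and covered 9 genes. The other was the single probe of Myl9. None of the 17 was saturated. The cells carried the markers of fibroblasts, since all 11 listed fibroblast genes were well above background on all 3 arrays, among them Vim, Col1a1 and Fn1. Of 7 smooth muscle markers, 4 were so, and Myh11, the smooth muscle myosin heavy chain, Lmod1 and Itga8 were on none of the arrays.

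The contractile genes differed little from their untreated level with both compounds. The median log2 difference over the 9 measured genes was -0.07 with AR7, -0.02 with BMS614 and -0.05 for AR7 against BMS614. Under other processing these medians went as low as -0.13, -0.078 and -0.13. The median over all 30288 probes was -0.01, 0.00 and 0.00 in turn. With AR7, 1 gene was higher and 8 were lower than in None, but Ankrd1, Actg2 and Vcl were lower by under 1 SD of repeated spots. With BMS614, 4 were higher and 5 were lower. Of the 13804 named genes well above background, 6729 were higher and 7036 lower with AR7. With BMS614, 6944 of them were higher and 6835 lower. If Myl9 were placed at either end of the list, the AR7 median would run from -0.10 to -0.05 and the BMS614 median from -0.06 to -0.01.

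**Figure D1:**
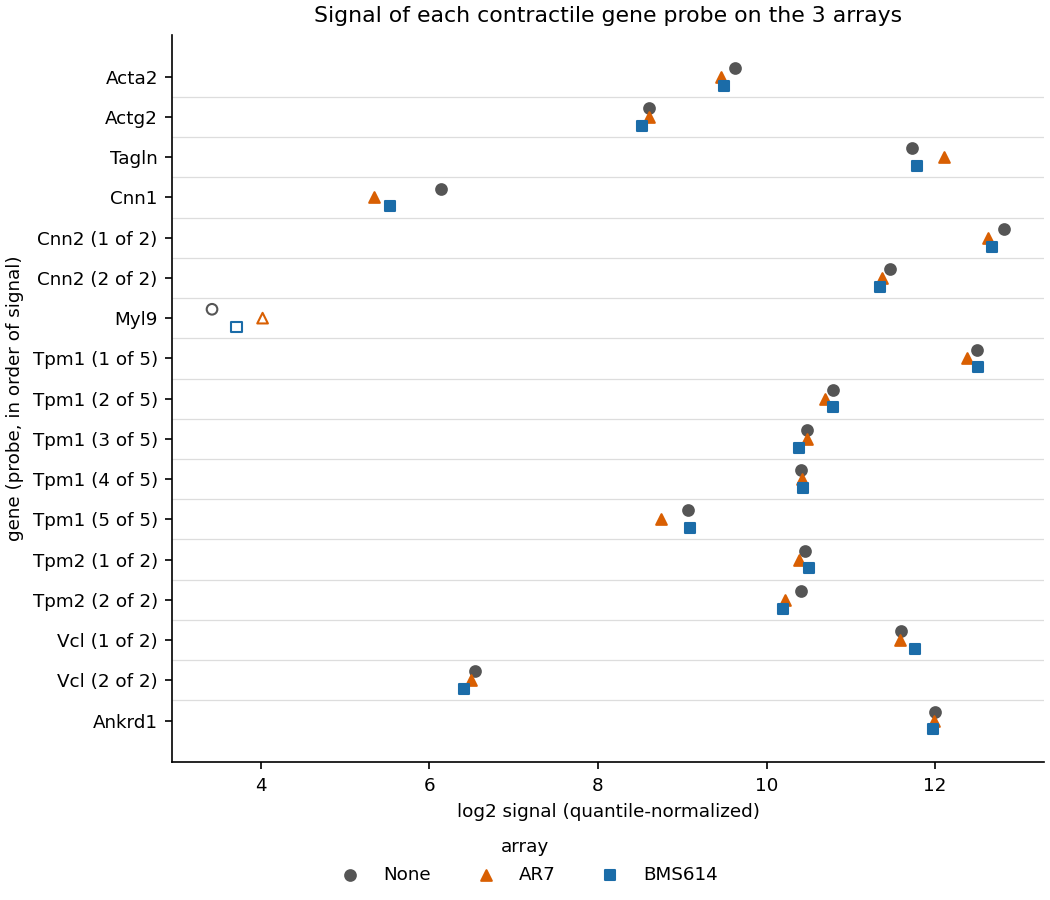
The log2 signal of each of the 17 probes on the None, AR7 and BMS614 arrays, with genes by row, probes of a gene in order of signal and the dim Myl9 probe as open symbols. AR7 lies to the right of the other arrays for Tagln and to the left for the dimmest Tpm1 probe, and None lies to the right for Cnn1; rows cannot be compared with each other, since each probe has its own response.

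Tagln encodes transgelin (SM22), a small actin-binding protein of smooth muscle and stimulated fibroblasts. Its log2 signal was 11.73 in None, 12.11 with AR7 and 11.79 with BMS614. AR7 therefore stood above both other arrays, which lay close together. AR7 was higher than None by 0.38, or 1.31-fold, which is 7.54 times the SD of repeated spots. BMS614 was higher than None by 0.07, or 1.28 times that SD.

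The direct difference between the compounds was 0.32 for Tagln, with AR7 1.25-fold over BMS614 and 8.48 times the SD. In the deposited processed table it was 0.21. Before normalization the probe read 3072 in None, 4440 with AR7 and 4292 with BMS614. The raw reading with BMS614 was thus close to that with AR7, on an array whose 75th percentile was higher. Among the 17661 probes whose log2 signal averaged 8 or more, a limit chosen after the values were seen, 154 (0.872%) were higher with AR7 by as much as Tagln or more. No other probe of the 10 genes was higher with AR7 by over 2 SD. Tagln is represented by 1 probe printed once, so its value rests on a single spot of each array.

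Acta2 encodes the alpha-actin of vascular smooth muscle and is the usual marker of myofibroblasts. Its probe is among those printed 10 times. The log2 signal of its spots ran from 9.49 to 9.79 in None (median 9.65, 10 spots), from 9.19 to 9.60 with AR7 (median 9.51, 10 spots) and from 9.41 to 9.58 with BMS614 (median 9.53, 9 spots, with 1 left out as an outlier). The treated arrays thus had lower medians than None, while many of their spots lay inside the range of None. Compared at the same position, AR7 was lower than None at 10 of 10 positions, by -0.18 ± 0.07 (SD, 10 spots). BMS614 was lower at 9 of 9 positions, by -0.15 ± 0.07 (SD, 9 spots).

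The compounds could hardly be told apart at this probe. AR7 was below BMS614 at 6 of 9 positions, and the mean difference was -0.02 ± 0.05 (SD, 9 spots). On the probe means, Acta2 was lower with AR7 by 1.13-fold and with BMS614 by 1.10-fold, or -2.15 and -1.42 times the SD of single spots. That SD is wider than the error of a mean over 9 or 10 spots, so it is a coarse yardstick for this probe. Spots of 1 array share a culture and an RNA extract, so they give the precision of the reading and not that of the treatment.

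**Figure D2:**
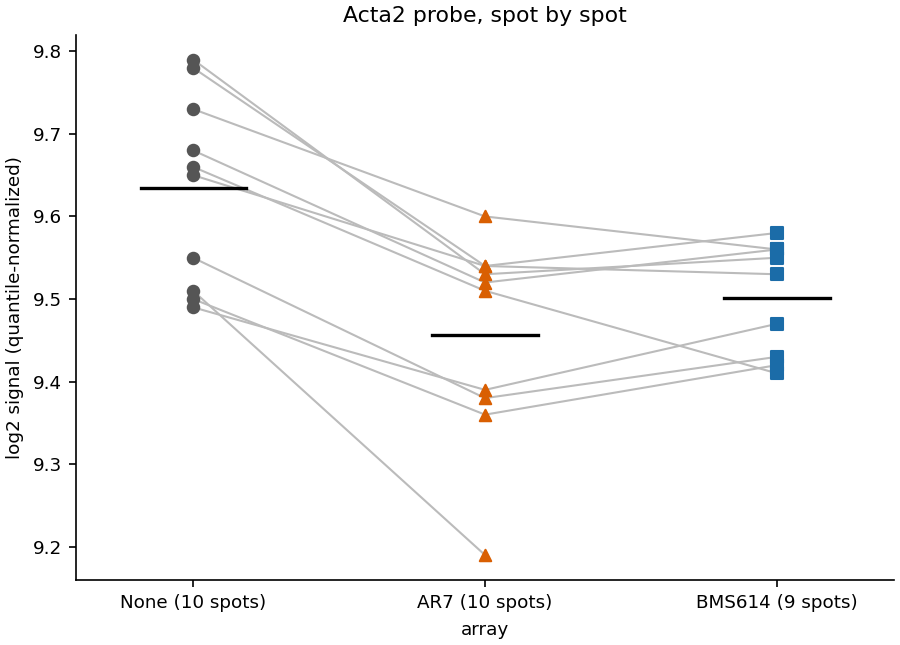
The log2 signal of each spot of the Acta2 probe on the 3 arrays, with grey lines joining spots at the same position and black bars at the mean of each array. Every line falls from None to AR7, and the AR7 and BMS614 spots overlap.

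Actg2, the gamma-actin of enteric smooth muscle, changed by less than the spot error. Its log2 signal was 8.61 in None, 8.60 with AR7 and 8.52 with BMS614. The differences from None were -0.01 and -0.09, within 1 SD of 0.0933 in the wider case. The actins are close to identical in coding sequence, and how far their probes share signal was not tested, since no probe sequences were at hand.

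The calponins bind actin filaments and restrain the myosin motor. Cnn1, the smooth muscle form, was dim, with a log2 signal of 6.14 in None, 5.34 with AR7 and 5.53 with BMS614. Both treated arrays were below None. The difference was -0.80 with AR7, or 1.74-fold lower, and -0.61 with BMS614, or 1.53-fold lower. Cnn1 was the only member past 1.5-fold with either compound. At this level the SD of repeated spots was 0.386 and 0.336, so the differences were -2.07 and -1.82 SD.

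The raw intensities of Cnn1 were 172 in None, 168 with AR7 and 184 with BMS614, over a local background of 44, 47 and 47. They differed little before scaling. With another background correction (normexp with an offset of 50) the differences were -0.32 and -0.27. With the RMA background kept and the arrays scaled to the 75th percentile they were -0.79 and -0.51, so the BMS614 difference was then also under 1.5-fold. The direction was kept in the 7 alternatives computed.

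Cnn2, the calponin of non-muscle cells, was bright and slightly lower with both compounds. Its brighter probe read 12.82 in None, 12.63 with AR7 and 12.67 with BMS614. The differences were -0.19 with AR7 (-3.09 SD) and -0.15 with BMS614 (-3.05 SD), each past 2 SD. The second probe read 11.46, 11.37 and 11.35. Its differences were -0.09 (-1.66 SD) and -0.11 (-2.12 SD), in the same direction but smaller. With the scanner's processed signal the BMS614 difference of the brighter probe was -0.09. Between the compounds the probes differed by -0.05 and 0.02. For the brighter probe that difference was -0.11 with the processed signal and -0.13 in the deposited table.

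Myl9 encodes the regulatory light chain of smooth muscle and non-muscle myosin. Its raw intensity was 110 in None, 137 with AR7 and 133 with BMS614, over a local background of 44, 47 and 46. On none of the arrays was the probe well above background, so no fold change is given, although its promoter held the pair of boxes printed above. The light chain genes Myl12a and Myl12b, which non-muscle cells use, were bright on all 3 arrays and differed from None by 0.01 and 0.07 with AR7 and by 0.03 and -0.02 with BMS614.

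The tropomyosins lie along actin filaments and govern the access of myosin. Tpm1 was read by 5 probes, designed to 4 transcript records of a gene with many splice forms. The brightest, for NM_001164249, read 12.50 in None, 12.38 with AR7 and 12.51 with BMS614. AR7 was lower than None by -0.13 (-2.51 SD), and BMS614 differed from None by 0.00. The probes for NM_001164248 and NM_001164255 differed from None by at most 0.10 with either compound, within 2 SD.

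The dimmest Tpm1 probe, for NM_001164251, stood apart from the others. It read 9.07 in None, 8.75 with AR7 and 9.09 with BMS614. AR7 was below both other arrays, by -0.32 (1.25-fold, -3.91 SD) against None and by -0.35 (1.27-fold, -4.08 SD) against BMS614. BMS614 was 0.03 above None. Among the same 17661 probes, 132 (0.747%) were lower with AR7 by as much or more. The 5 probes therefore differed in size among themselves with AR7, from -0.32 to 0.01, and less with BMS614, from -0.10 to 0.03. Which transcripts each probe reads was not tested.

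Tpm2, the beta-tropomyosin, gave probes that disagreed. The brighter read 10.46 in None, 10.39 with AR7 and 10.51 with BMS614, with differences of -0.07 and 0.05 that were within 2 SD. The second read 10.41, 10.22 and 10.20, with differences of -0.19 (-2.44 SD) and -0.21 (-3.21 SD). Both probes were lower with AR7. With BMS614 they took opposite signs, and their mean was -0.08. The sign of the brighter probe with BMS614 also turned to -0.04 with the scanner's processed signal.

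Vcl encodes vinculin, which couples actin filaments to integrin and cadherin adhesions. Its bright probe read 11.60 in None, 11.58 with AR7 and 11.76 with BMS614. BMS614 was the high array, above None by 0.15 (1.11-fold, 2.97 SD), while AR7 differed from None by -0.03. AR7 was below BMS614 by -0.18 (-3.96 SD). The second, dim probe read 6.54, 6.49 and 6.41, and its differences of -0.06 and -0.13 were under 1 SD. The mean over both probes put BMS614 above None by 0.01.

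Ankrd1 encodes a cardiac ankyrin repeat protein that is also among the best known targets of YAP and TEAD. Its log2 signal was 12.00 in None, 11.99 with AR7 and 11.98 with BMS614. The 3 arrays could not be told apart, with differences of 0.00 and -0.02 beside an SD of 0.0509 and 0.0508.

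Counted over the 16 probes, AR7 was higher than None by over 2 SD at 1 probe (Tagln), where the share over all 30288 probes was 9.00%. It was lower at 6 probes (Acta2, Cnn1, 1 of Cnn2, 2 of Tpm1 and 1 of Tpm2), or 37.5%, where the share over all probes was 8.66%. BMS614 was higher at 1 probe (Vcl; 12.6% over all probes) and lower at 3 (2 of Cnn2 and 1 of Tpm2), or 18.8% against 12.8%. Acta2 is not counted with BMS614, although it was lower at 9 of 9 positions. Probes of a gene are not independent, and these counts carry no test.

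Between the compounds, AR7 was higher than BMS614 by over 2 SD at 1 probe (Tagln; 12.7% over all probes). It was lower at 4 (2 of Tpm1, 1 of Tpm2 and 1 of Vcl), or 25.0%, where the share over all probes was 12.2%. At least 1.5-fold was reached by 1 probe with AR7 (4.20% over all probes), by 1 with BMS614 (4.90%) and by 0 between the compounds (3.20%). At this fold size the members were near the background. The comparisons of AR7 and of BMS614 with None share the None array, so a low or high reading there enters both.

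**Figure D3:**
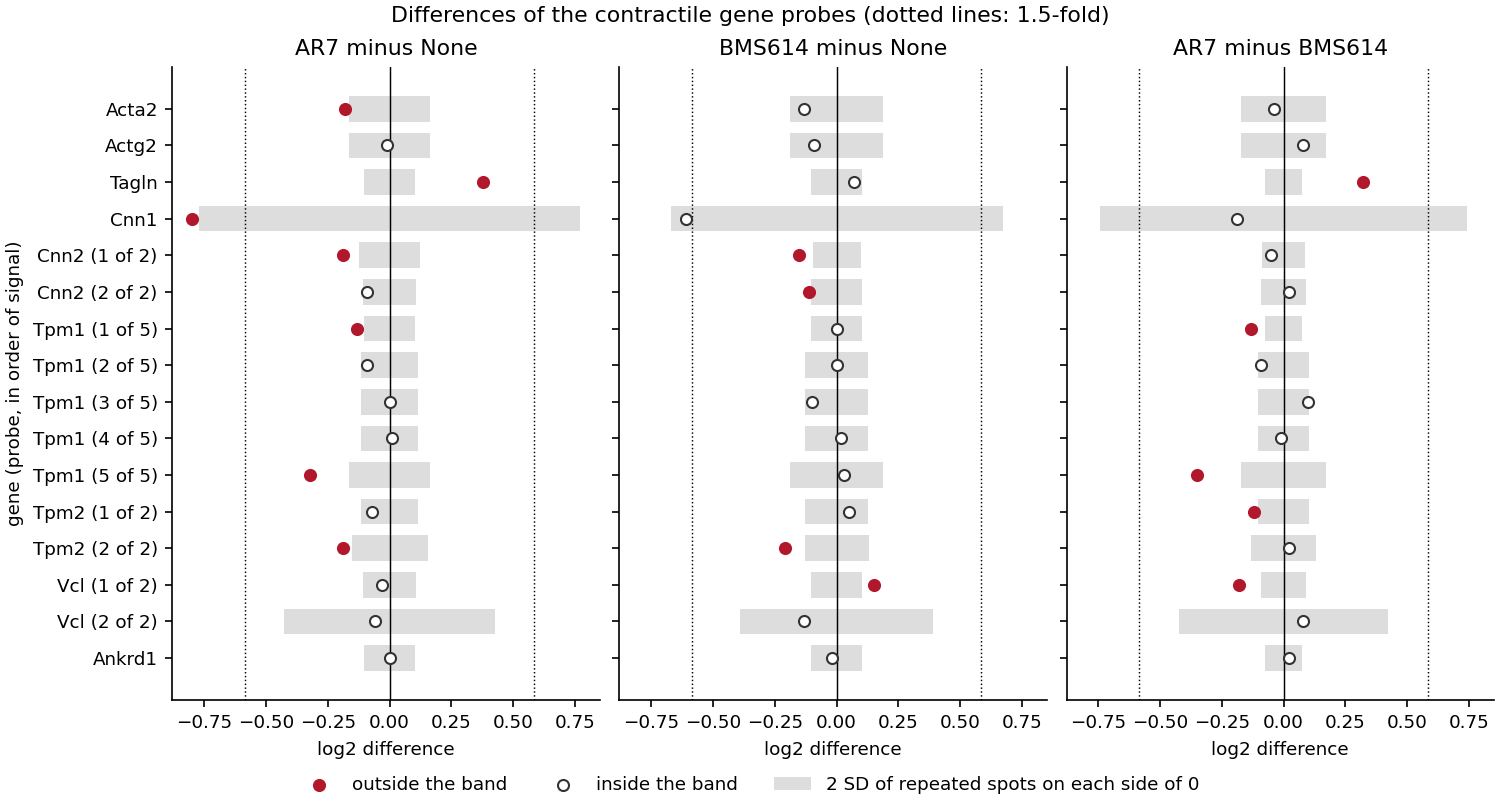
The log2 difference of the 16 measured probes for AR7 against None, BMS614 against None and AR7 against BMS614, with grey bands of 2 SD of repeated spots and dotted lines at 1.5-fold. Red points lie outside the band, with 7 in the first panel, 4 in the second and 5 in the third.

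**Figure D4:**
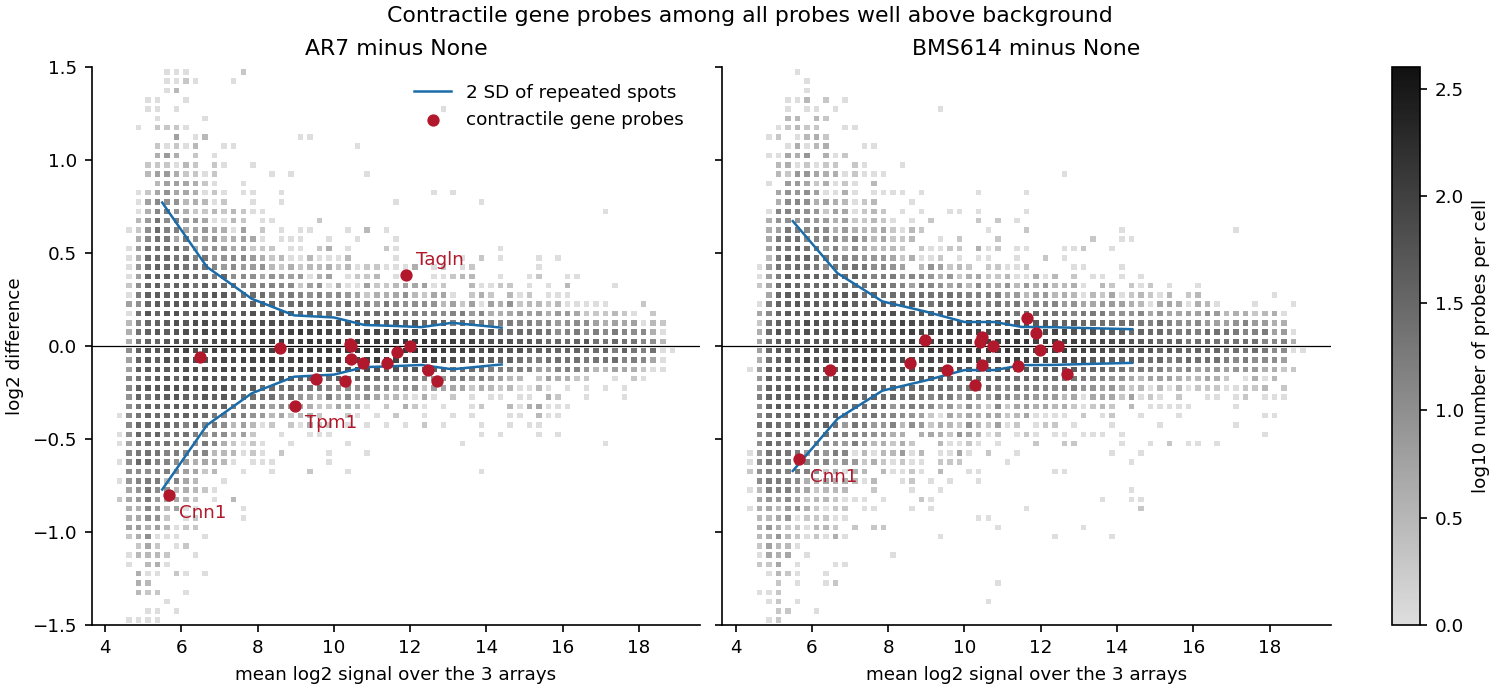
The log2 difference from None against mean log2 signal for all 30288 probes well above background (grey, by number per cell), with the contractile gene probes in red and 2 SD of repeated spots as blue lines. The spread of all probes widens at low signal, where Cnn1 lies, and Tagln stands above the blue line with AR7; points beyond 1.5 on the log2 scale are not drawn.

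The scaling of the arrays sets the zero of these differences. Scaled on the spike-in controls in place of the common distribution, the median of all probes was 0.13 above None with AR7 and 0.31 above None with BMS614. Relative to those medians, the 9 genes moved by less than the SD of repeated spots. This correction by the medians also removes the spike-in scale of each array, so the small movement is no separate check of that scale. Without that correction, 5 of the 9 genes were above None with AR7 and 8 of 9 with BMS614. Acta2 then differed from None by -0.03 with AR7 and 0.17 with BMS614, and Tagln by 0.52 and 0.37. The count of genes above None was 1 with AR7 and 4 with BMS614 under the common distribution, so the direction of several members, Acta2 with BMS614 included, holds only relative to all probes. Cnn1 remained below None, at -0.65 and -0.20.

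The upstream route was examined by a list of 17 regulators, of which 16 were well above background on all 3 arrays. Their median difference was 0.01 with AR7 and 0.00 with BMS614. With AR7, 3 genes were higher and 1 lower by over 2 SD, and with BMS614, 3 were higher and 2 lower. The shares over all 13804 named genes were 9.49% higher and 8.78% lower with AR7 and 13.3% higher and 12.0% lower with BMS614. None of the 16 reached 1.5-fold, which 2.32% of named genes did with AR7 and 2.79% with BMS614.

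Srf itself read 11.50 in None, 11.52 with AR7 and 11.39 with BMS614 on its brighter probe. Its difference was 0.02 with AR7 and -0.10 with BMS614 (SD 0.0514), so Srf is among the 2 regulators counted as lower with BMS614. Its second probe differed from None by at most 0.03. Mrtfa, for MRTF-A, read 12.58, 12.57 and 12.55 on its brighter probe, and its second probe was lower than None by -0.17 and -0.14. Mrtfb, for MRTF-B, read 11.90 in None, 12.04 with AR7 and 12.12 with BMS614, with None as the low array. Its differences were 0.14 and 0.22, beside an SD of 0.0509 and 0.0508, and it was the regulator with the highest difference with BMS614.

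Myocd, the muscle coactivator myocardin, was well above background on none of the arrays. Rhoa, the small GTPase at the head of the pathway, read 14.79, 14.77 and 14.81 on its brighter probe. Its second probe read 10.86 in None, 10.64 with AR7 and 11.42 with BMS614, so the probes of Rhoa disagreed. They were at -0.02 and -0.22 with AR7 and at 0.02 and 0.56 with BMS614, where the second probe had an SD of 0.0567 and 0.0646. At the second probe AR7 was below BMS614 by -0.78 (SD 0.0517). The formins Diaph1 and Diaph3, which drive actin polymerization, were at the ends of the list with AR7, at 0.18 and -0.18, but the second probe of Diaph1 was at -0.10. Rhoc was the lowest with BMS614, at -0.15, and its second probe was at 0.04.

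Of 20 other cytoskeletal SRF targets, 19 had a probe and 17 were well above background on all 3 arrays. Their median was 0.02 with each compound. With AR7, 1 was higher (Flna, the actin cross-linker filamin A, at 0.22) and 2 were lower by over 2 SD, beside 9.49% and 8.78% of named genes, and the lowest was Csrp1 at -0.16. With BMS614, 3 were higher and 1 was lower, beside 13.3% and 12.0%, and Pdlim5 had the lowest difference at -0.12. The cytoplasmic actins read 18.07, 18.02 and 18.04 for Actb and 18.20, 18.22 and 18.18 for the brightest probe of Actg1. Other probes of Actg1 were as low as -0.09 with AR7 and -0.28 with BMS614. Acta1, skeletal alpha-actin, was dim, and its difference of 0.33 with BMS614 was the highest of the list, within 1 SD of 0.336. Actc1, cardiac alpha-actin, was well above background on none of them.

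Of 10 relatives of the contractile genes, 8 were measured, with medians of -0.01 with AR7 and -0.04 with BMS614. By their brightest probes, 0 were outside 2 SD with AR7 (9.49% of named genes higher, 8.78% lower), and 1 was higher and 1 lower with BMS614 (13.3% and 12.0%). Dimmer probes of Tpm3 and Tagln2 were lower than None by over 2 SD with both compounds, at -0.55 and -0.43 for Tpm3 and at -0.17 and -0.28 for Tagln2. Ankrd23 had the lowest difference with both compounds, -0.17 and -0.20, and Myl12b with AR7 (0.07) and Myl6 with BMS614 (0.10) the highest. The Ankrd23 values stood beside an SD of 0.213 and 0.196, and its second probe was at 0.03 and 0.14.

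Targets of YAP and TEAD, a second pathway that reads tension on the cytoskeleton, were mostly above None. All 9 were measured, with medians of 0.11 with AR7 and 0.16 with BMS614 on their brightest probes. On these probes 8 of 9 were above None with each, beside 6729 of 13804 named genes with AR7 and 6944 with BMS614. By over 2 SD, 4 were higher with AR7 (9.49% of named genes) and 5 with BMS614 (13.3%), and 0 were lower with either (8.78% and 12.0%). Ccn1, a secreted matrix protein, was higher with AR7 by 0.17, and Lats2, a kinase that restrains YAP, was higher with BMS614 by 0.38. Crim1 was the lowest with AR7, at -0.16.

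**Figure D5:**
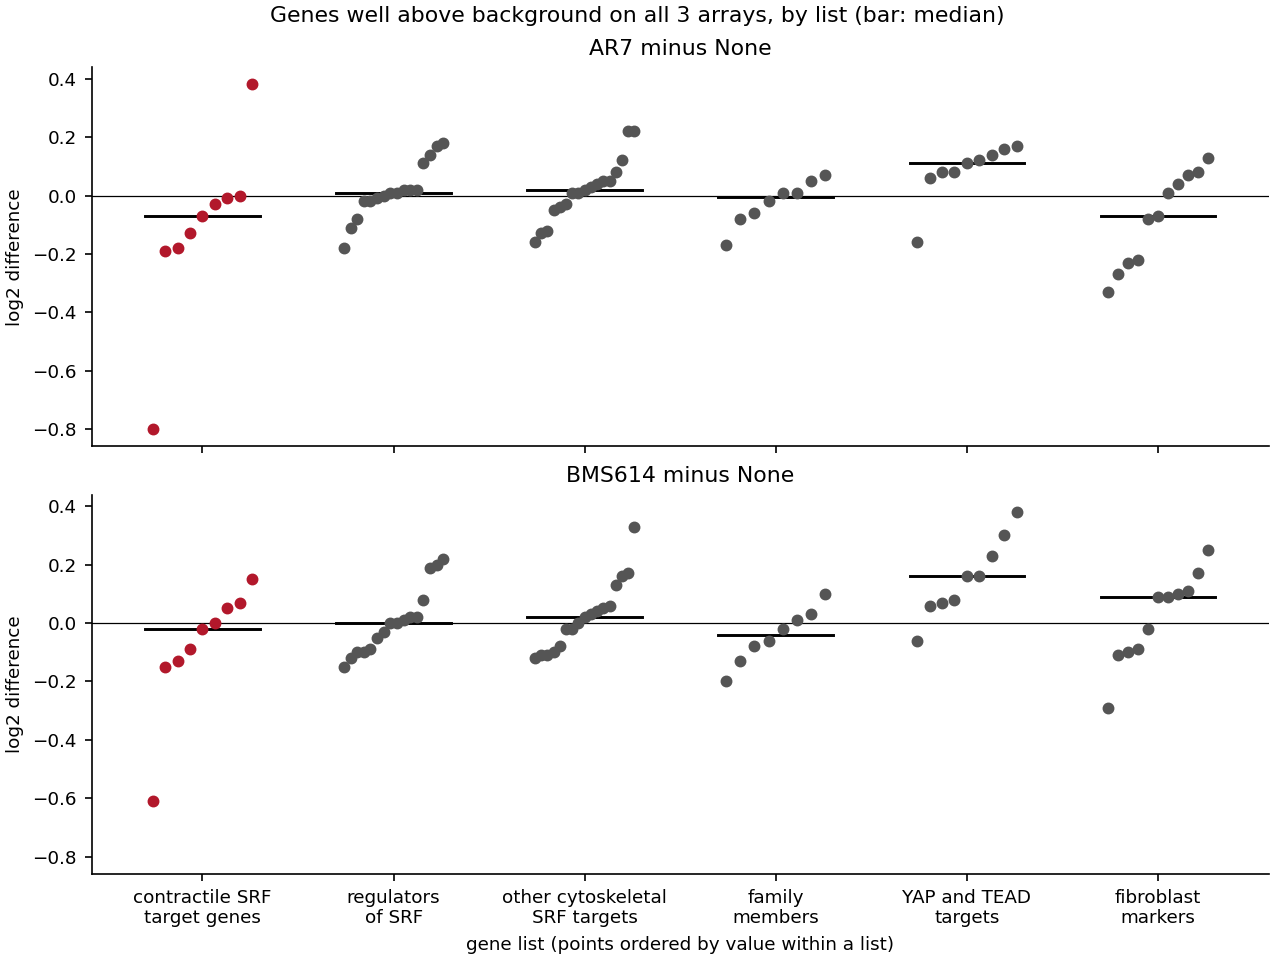
The log2 difference from None of each gene well above background on all 3 arrays (brightest probe), by list, with AR7 above and BMS614 below and black bars at the median of each list. The contractile genes (red) have medians of -0.07 and -0.02, with Cnn1 lowest in both panels and Tagln highest with AR7.

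Markers of other cell types were set beside these values. The summed signal of the 7 smooth muscle markers, on a linear scale, was 4203 in None, 4196 with AR7 and 4242 with BMS614, and that of the 11 fibroblast markers was 812607, 810640 and 850418. Nearly all of the smooth muscle sum was Smtn (log2 11.98 in None), so it does not describe the other markers. The sums of the muscle and epithelial lists also take in markers that were not well above background. Among the smooth muscle markers Synm, an intermediate filament protein, was lower with AR7 by -0.71 at a dim probe (SD 0.386), and Smtn, a cytoskeletal protein of smooth muscle, differed by 0.00 and 0.01. The fibroblast markers had a median of -0.07 with AR7, as the contractile genes had, and of 0.09 with BMS614. By over 2 SD, 1 was higher and 3 were lower with AR7 (9.49% and 8.78% of named genes). With BMS614, 4 were higher and 2 were lower (13.3% and 12.0%). All 11 were lower with AR7 than with BMS614, 6 by over 2 SD, beside 6964 and 1938 of 13804 named genes. Of the fibroblast markers, Col3a1 was the lowest with each compound, at -0.33 and -0.29 on a dim probe, and Fn1 with AR7 (0.13) and Col1a1 with BMS614 (0.25) the highest.

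The summed signal of 6 skeletal muscle markers was 168, 216 and 225, and Myog, Ckm and Mylpf passed the background flag on none of the arrays. Tnnt3, a skeletal troponin, was higher with AR7 by 0.65 at a dim probe (SD 0.386), and Myod1, the myogenic factor, by 0.50 with AR7 and 0.44 with BMS614. The sums were 436, 433 and 407 for 4 cardiac markers and 284, 249 and 307 for 3 epithelial ones, and neither Tnni3 nor Epcam passed that flag. Tnnt2 was the lowest cardiac marker with each compound, at -0.23 and -0.19, and Myh6 the highest with AR7, at 0.19. Cdh1 differed by -0.17 and -0.04, and Krt14 by -0.13 and 0.22. The part of such cells in the values of the contractile genes was not tested.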

How the data were processed

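NIH3T3 cells were profiled on 3 one-colour Agilent arrays, 1 for each condition. The authors deposited the scanner software's (Agilent Feature Extraction 10.7.3.1) intensity of each spot without between-array normalization, with a further table of processed intensities. RMA in the oligo package is the method that the study names. Here the median pixel intensity was corrected with the RMA convolution background, quantile normalized over the 3 arrays and put on the log2 scale (R 4.3.3, limma 3.58.1; Python 3.11.15, numpy 2.4.6, pandas 2.3.3, matplotlib 3.10.9). Control and outlier spots were left out, and spots of a probe were averaged. Probes were named through RefSeq accessions (27235 of 55681, GRCm38.p6 table).

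A gene is represented by its brightest probe, and every probe of the 10 genes is given. The genes, the gene lists and the markers were chosen with earlier results of these data known. From the lists, Srf, Mrtfa, Mrtfb, Myocd, Rhoa and the other actins are named, with genes changed at least 1.5-fold or, where a list has none, its highest and lowest difference. An item that this rule would name is not reported here. Some members of the lists are named beyond that rule, after their values were seen. The SD of repeated spots was taken in 10 bins of signal from the 265 probes printed 10 times. The code for the calls was run on simulated noise drawn from that same SD. That run checks the code only and holds no variation between arrays or cultures. The number of arrays limits the precision. The processed table (each column a straight-line function of background-subtracted intensity) was floored at 16, put on the log2 scale and used as an alternative only.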

Additional observations from a re-analysis of the deposited data

How the results depend on the processing

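The 7 alternatives gave 189 values for the 9 measured genes and 3 differences, with spike-in scaling taken relative to the median of all probes. Of these, 168 moved by less than the SD of repeated spots, 21 moved by more, and no difference past that SD changed sign. So taken, spike-in scaling by its construction nearly repeats the 27 values of the RMA background with 75th percentile scaling. Its own 27 values are all among the 168 and are no separate check. Without the correction by the median signs did change, as for Cnn2 with BMS614, from -0.15 (-3.05 SD) to 0.16. The AR7 median of the 9 measured genes was -0.13 with the scanner's processed signal scaled to the 75th percentile and -0.13 in the deposited table. The median of AR7 against BMS614 was -0.094 and -0.13 in the same order. The BMS614 median was -0.078 when the probes of a gene were averaged. The count of probes past 1.5-fold with AR7 was 0 with the processed signal, normexp, the deposited table or a 2-fold limit, and 2 without the filter on dim probes. With BMS614 it was 0 under the first 4 of these, with the RMA background scaled to the 75th percentile and with spike-in scaling. The mean pixel intensity of a spot was planned as an alternative and in normexp, but only the median was used. No paired analysis was possible because the conditions had a single array each. Leaving out a replicate was not possible for the same reason. Signal over background limits Cnn1, the dim Vcl probe and Myl9.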
